A study of Mus musculus with 8 samples.

Results

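The genes described here are 26 genes of cholesterol synthesis and of its control by the transcription factor SREBP2, read from liver RNA of female mice of the strain NFS/sld. They were chosen by name as a pathway list, with earlier results of these data known. A gene was found by its symbol in the deposited table or, where the symbol was an older one, by its Entrez identifier. Of the 26 genes, 25 had a probe that could be tested, among 16497 genes with such a probe on the array. The thiolase Acat2 was not analysed here.

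Cholesterol is built from acetyl-CoA through mevalonate, isoprenoid diphosphates, squalene and lanosterol, and the liver is a main site of this synthesis. When sterol in the endoplasmic reticulum is low, Scap escorts the precursor of SREBP2 to the Golgi, where it is cut, and the released part enters the nucleus and raises the transcription of the enzymes. When sterol is high, Insig1 and Insig2 hold Scap back, so the enzymes of the pathway tend to move together.

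The study used thymectomy in newborn mice as a model of primary Sjögren's syndrome. The 4 samples labelled Tx came from NFS/sld females whose thymus was removed on day 3 of life, with liver taken 8 weeks after the operation, and the 4 labelled nonTx came from NFS/sld females that kept their thymus. All 8 samples were RNA of liver tissue from the same strain, and the labels give neither a sham operation nor the age of the nonTx mice. The replicates are labelled as independent without naming separate mice, so a p-value here weighs only the spread from sample to sample, part of which may be technical. Each sample was hybridised to 1 one-colour Agilent array, and the arrays are called nonTx 1 to nonTx 4 and Tx 1 to Tx 4 below. The labels do not pair samples of equal number.

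The array's 75th percentile of signal ran from 225 to 330, and 51.1% to 57.1% of the probes were well above background on an array. No spot of the 25 genes was saturated, and none of their values was missing. All arrays lay on 1 slide, the nonTx arrays in its first row and the Tx arrays in its second, so slide row and thymectomy cannot be told apart. Arrays of equal number lay in the same slide column. The 9 hepatocyte markers were all detected, Alb with a signal of 733 to 920 times the array's 75th percentile, and their summed level was 3340 to 3570 in nonTx and 3100 to 3640 in Tx. Among 8 T cell markers the median of Tx minus nonTx was -0.53 on the log2 scale, and 6 were lower. At an unadjusted limma p under 0.05, 5 were lower, against 5.25% of all genes. The 2 brightest markers were higher in Tx, Cd4 by 0.32 ± 0.18 (SE) and Cd3e by 0.13 ± 0.12. The summed level of the 8 was 21 to 23.1 in nonTx and 20.3 to 33.6 in Tx. Of 6 neutrophil markers 5 were tested, and all 5 were higher in Tx, against 56.3% of all genes. Their median was 0.56 (0.34 when scaled to spike-in RNAs). Among them 3 had an unadjusted limma p under 0.05, against 8.65% of all genes higher at that p. The part of either cell type in the results below was not tested. In RNA of whole tissue, fewer cells of a type and less RNA per cell cannot be told apart.

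Values below are the processed signal of a gene's brightest tested probe divided by the array's 75th percentile, called the relative signal. A difference is the mean log2 relative signal of Tx minus that of nonTx, with the standard error (SE) from limma. Levels of different genes were not compared, since probes differ in how well they hybridise.

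Between the groups, 23 of the 25 genes (92%) were higher in Tx, against 56.3% of all genes tested. Their median log2 difference was 0.39, against 0.03 over all genes. Scaled to 7 bright spike-in RNAs, 19 of the 25 genes were higher, against 16.6% of all genes. Their median was then 0.18 and that of all genes -0.18. This scaling shifts every gene alike, so the distance of 0.36 between the medians stays the same by construction. Ggps1, Lbr, Srebf2 and Scap changed sign under spike-in scaling. None of the 25 passed an adjusted p of 0.05 (limma, Benjamini-Hochberg over all 30957 probes tested), a threshold passed by 0% of all genes, and their adjusted p-values ran from 0.313 to 0.979. At an unadjusted limma p under 0.05, 3 genes (12%) were higher, against 8.65% of all genes, and none was lower, against 5.25%. No gene had all Tx arrays above all nonTx arrays, a pattern held by 5.11% of all genes, and none had all Tx arrays below, against 2.94%. The share in one direction was above the background, and the shares past a p or without overlap were near it or below it.

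**Figure D1:**
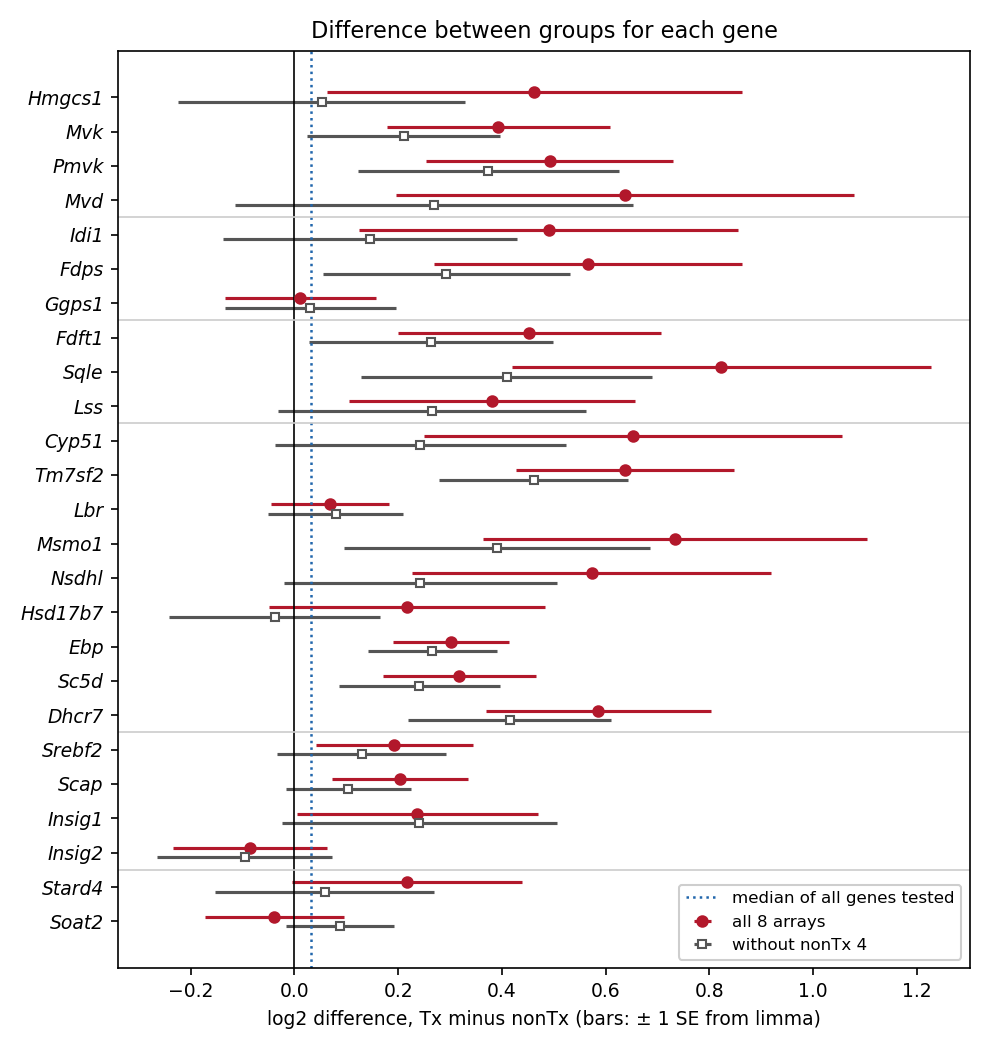
Log2 difference between Tx and nonTx for each of the 25 genes in pathway order, with bars of 1 SE from limma, for all 8 arrays (red circles) and without the array nonTx 4 (open squares); the dotted line is the median of all genes tested. Most circles lie right of 0 with wide bars, and most squares lie closer to 0.

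Most of the 25 genes swung together over the 8 arrays, a pattern that includes any difference between the groups. Ggps1, Lbr, Insig2 and Soat2 followed the others weakly or not at all (r with the median of the rest 0.0815, 0.424, -0.369 and -0.526 over the 8 arrays). For Insig1 and Ebp this r was 0.507 and 0.605. The median deviation of the genes from their own means over the 8 arrays, taken as the level of the pathway on an array, was -0.12, -0.19, 0.33 and -0.74 on the log2 scale in nonTx 1 to nonTx 4. In Tx 1 to Tx 4 it was 0.30, -0.17, 0.43 and 0.27. The group means were -0.18 (SD 0.44, n = 4) in nonTx and 0.21 (SD 0.26, n = 4) in Tx. The array nonTx 3 lay with Tx 1, Tx 3 and Tx 4 on the high side, Tx 2 lay with nonTx 1 and nonTx 2, and nonTx 4 stood below all others. On nonTx 4 were the lowest values of 19 of the 25 genes, whereas 14.5% of all genes tested had their lowest value there. The highest value lay on Tx 3 for 11 genes, on nonTx 3 for 6 and on Tx 1 for 4. This order and these counts hold for scaling to the 75th percentile. Relative to it, bright spike-in RNAs had log2 levels of -0.35 on nonTx 4, 0.43 on Tx 2 and 0.44 on Tx 3. Scaled to these RNAs, Tx 2 would be the lowest array, below nonTx 4, and Tx 3 would not be among the high ones.

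**Figure D2:**
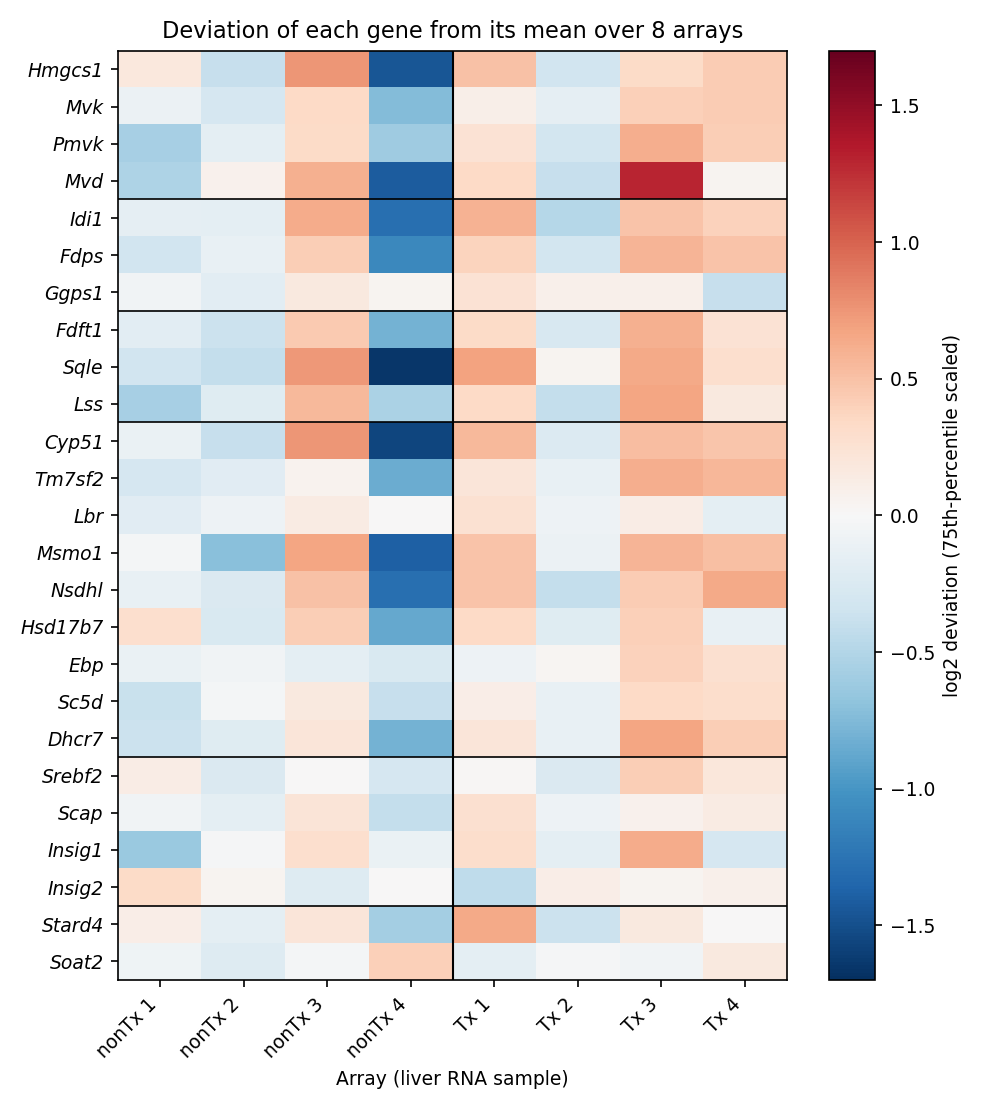
Log2 deviation of each gene from its mean over the 8 arrays (colour), genes in pathway order from top to bottom and arrays from left to right, with lines between pathway steps and between the groups. The column of nonTx 4 is blue for most enzymes, nonTx 3 has the colour of Tx 1, Tx 3 and Tx 4, and Tx 2 that of nonTx 1 and nonTx 2; Ggps1, Lbr, Insig2 and Soat2 stay pale.

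The spread inside groups was wider than for most genes on the array. The residual standard deviation (SD) between arrays of a group, on the log2 scale, had a median of 0.405 over the 25 genes and of 0.191 over all genes tested. Of the 25 genes, 9 lay above the 90th percentile of all genes and 5 above the 95th, which was 0.66. The 5 were Mvd, Sqle, Cyp51, Hmgcs1 and Msmo1. From the lowest to the highest array the genes spanned a median of 2.40-fold, against 1.52-fold over all genes.

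**Figure D3:**
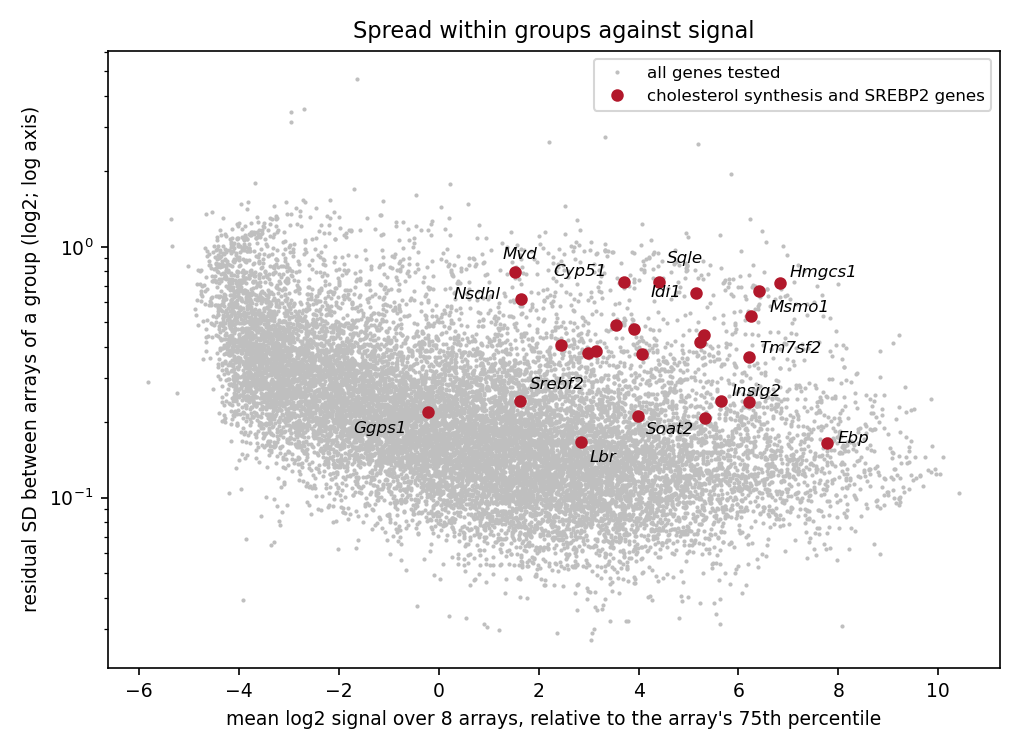
Residual SD between arrays of a group (log axis) against the mean log2 signal relative to the array's 75th percentile, for all 16497 genes tested (grey) and the 25 genes of cholesterol synthesis and SREBP2 control (red). Mvd, Sqle, Cyp51, Hmgcs1 and Msmo1 lie at the upper edge of the grey cloud, and Ebp, Lbr, Soat2 and Ggps1 inside it.

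Single arrays moved the comparison. Without nonTx 4, the lowest array, the median log2 difference was 0.24, and 23 genes were higher, against 56.6% of all genes. Without this array 1 gene (4%), Tm7sf2, had an unadjusted limma p under 0.05, against 6.53% of all genes higher at that limit. Without nonTx 3 the median was 0.63, 15 genes (60%) were higher at an unadjusted p under 0.05, against 6.93% of all genes, and 3 (12%) had groups that did not overlap, against 7.77%. Without Tx 2 the median was 0.58, with 10 genes (40%) at that p, against 9.77%, and 2 (8%) without overlap, against 9.74%. There was 1 gene at an unadjusted p under 0.05 without Tx 3, against 6.11% of all genes, and 1 without Tx 4, against 5.17%. Single differences moved too: without nonTx 4 they were 0.21 for Mvk, 0.15 for Idi1, 0.29 for Fdps, 0.26 for Fdft1, 0.24 for Nsdhl and 0.10 for Scap, and without Tx 3 they were 0.31 for Mvd, 0.22 for Lss and 0.09 for Srebf2. The lowest adjusted p of any of the 25 genes in any of 20 alternative settings was 0.138 (limma, Benjamini-Hochberg).

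Promoter sequences of members that swung together are given next, as a description. The list was drawn up around SREBP2, so its choice is not independent of sites for that factor. A tie between these letters and the signals was not tested. They are the RefSeq reference sequence of build GRCm38.p6, 250 bases before to 50 bases after a gene's start, not the sequence of NFS/sld mice, and they were chosen after the values were seen. Capitals mark the sterol regulatory element TCACNCCAC, the class of site that SREBP2 binds, and the box CCAAT, the site of the factor NF-Y that acts beside SREBP2, each on either strand (CCAAT on the other strand reads ATTGG). The sequences run 5′ to 3′ on the gene's strand: Hmgcs1 at chr13:119690101-119690400 (+), Idi1 at chr13:8885356-8885655 (+), Cyp51 at chr5:4104648-4104947 (-), Msmo1 at chr8:64733529-64733828 (-), Mvd at chr8:122443373-122443672 (-) and, for contrast, Insig2 at chr1:121332540-121332839 (-), the farthest upstream of its 3 starts in the table.
Hmgcs1: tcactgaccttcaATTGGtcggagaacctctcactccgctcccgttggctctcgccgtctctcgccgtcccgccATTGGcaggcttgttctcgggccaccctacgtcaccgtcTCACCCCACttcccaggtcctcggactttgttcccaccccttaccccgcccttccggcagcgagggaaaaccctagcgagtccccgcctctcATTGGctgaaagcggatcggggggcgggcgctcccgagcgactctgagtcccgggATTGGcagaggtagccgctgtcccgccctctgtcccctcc
Idi1: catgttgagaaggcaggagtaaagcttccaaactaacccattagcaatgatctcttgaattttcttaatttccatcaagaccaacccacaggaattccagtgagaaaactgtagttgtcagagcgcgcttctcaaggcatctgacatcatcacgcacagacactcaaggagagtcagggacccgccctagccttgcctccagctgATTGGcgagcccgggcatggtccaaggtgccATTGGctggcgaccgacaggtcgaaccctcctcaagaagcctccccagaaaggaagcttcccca
Cyp51: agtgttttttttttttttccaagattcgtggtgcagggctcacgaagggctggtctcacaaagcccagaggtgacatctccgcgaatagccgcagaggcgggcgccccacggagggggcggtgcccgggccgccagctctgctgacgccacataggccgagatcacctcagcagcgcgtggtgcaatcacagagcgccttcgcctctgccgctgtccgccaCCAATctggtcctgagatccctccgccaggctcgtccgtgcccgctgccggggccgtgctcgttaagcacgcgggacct
Msmo1: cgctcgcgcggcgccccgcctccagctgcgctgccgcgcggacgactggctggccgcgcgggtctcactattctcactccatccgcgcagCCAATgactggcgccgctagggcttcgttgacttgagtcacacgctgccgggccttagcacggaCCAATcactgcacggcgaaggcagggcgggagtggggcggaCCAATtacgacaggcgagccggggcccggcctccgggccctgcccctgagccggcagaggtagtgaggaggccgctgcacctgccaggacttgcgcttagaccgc
Mvd: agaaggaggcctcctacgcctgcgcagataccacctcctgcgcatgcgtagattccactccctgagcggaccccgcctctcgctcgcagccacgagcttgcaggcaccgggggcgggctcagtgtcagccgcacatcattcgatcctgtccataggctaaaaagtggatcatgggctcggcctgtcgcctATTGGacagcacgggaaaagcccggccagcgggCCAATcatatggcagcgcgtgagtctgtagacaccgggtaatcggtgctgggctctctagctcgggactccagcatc
Insig2: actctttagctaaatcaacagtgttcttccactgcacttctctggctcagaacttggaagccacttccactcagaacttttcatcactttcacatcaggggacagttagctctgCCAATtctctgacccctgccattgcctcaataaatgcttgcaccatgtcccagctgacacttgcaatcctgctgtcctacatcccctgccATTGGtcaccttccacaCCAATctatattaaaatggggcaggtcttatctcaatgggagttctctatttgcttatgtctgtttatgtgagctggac
In the Hmgcs1 promoter TCACCCCAC stood at positions -137 to -129 from the start, with 4 NF-Y boxes around it, and no capital stretch of these promoters overlapped another. The Msmo1 promoter held 3 NF-Y boxes, at -160 to -156, -96 to -92 and -55 to -51.

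Over all 26 promoters of the 20 measured genes with an entry in the table, TCACNCCAC was in 1 (3.85%), against 1.24% of 32851 promoters of the same length. CCAAT was in 19 promoters (73.1%), against 37.4%, and 2 or more copies were in 46.2%, against 11.7%. The Sp1 box GGCGGG was in 20 (76.9%), against 35.3%, and the E-box CACGTG in 6 (23.1%), against 7.15%. Of the 3 promoters of Insig2, which did not swing with the enzymes, the one shown held 3 CCAAT boxes and each of the others 0. The promoters of Ggps1 and Lbr, which followed the other genes weakly, held 3 and 2. Scap, with an r of 0.93, had 0 in each of its promoters. A match of letters describes these windows and is not a measured binding site.

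The early steps turn acetyl-CoA into mevalonate and then into isopentenyl diphosphate. Hmgcs1, the cytosolic HMG-CoA synthase, had a relative signal of 128, 86.3, 190 and 41.1 in nonTx 1 to nonTx 4 and of 160, 90.4, 141 and 152 in Tx 1 to Tx 4. The nonTx arrays spanned 4.62-fold and enclosed every Tx array. The log2 difference was 0.46 ± 0.40 (SE), with an unadjusted limma p of 0.274, and it was 0.05 without nonTx 4. A dim second probe of Hmgcs1 gave -0.50 ± 0.48, and the mean of both probes -0.02.

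Mvk, the mevalonate kinase, had a log2 difference of 0.39 ± 0.22 (SE), with relative signals of 10.1 to 21.3 in nonTx and 15.1 to 22.6 in Tx. Pmvk, the phosphomevalonate kinase, had relative signals of 25.3, 33.5, 46.9 and 24.6 in nonTx 1 to nonTx 4 and of 44.3, 30.1, 57.4 and 50 in Tx 1 to Tx 4. Tx 3 and Tx 4 lay above every nonTx array, while Tx 2 lay below nonTx 2 and nonTx 3. The difference of Pmvk was 0.49 ± 0.24 (SE; 1.41-fold, unadjusted limma p 0.0657).

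Mvd, the decarboxylase that makes isopentenyl diphosphate, spread most of the 25 genes, with a residual SD of 0.79 on the log2 scale. Its relative signal was 2, 3.02, 4.35 and 1.07 in nonTx 1 to nonTx 4 and 3.63, 2.18, 7.01 and 2.96 in Tx 1 to Tx 4. The lowest array, nonTx 4, and the highest, Tx 3, were 6.55-fold apart, and the other 6 arrays overlapped between groups. The difference was 0.64 ± 0.44 (SE), with an unadjusted limma p of 0.18, and 0.27 without nonTx 4. Of the 4 genes of these early steps, all had a positive difference and their lowest value on nonTx 4.

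Among the isoprenoid steps, Idi1, the isopentenyl diphosphate isomerase, ran from 14.6 to 54.7 in nonTx and from 25.3 to 53.5 in Tx, with a difference of 0.49 ± 0.37 (SE). Fdps, the farnesyl diphosphate synthase, had a relative signal of 61.2, 70.1, 102 and 35.6 in nonTx 1 to nonTx 4 and of 99.1, 61.6, 114 and 107 in Tx 1 to Tx 4. Tx 3 and Tx 4 were above every nonTx array, Tx 1 lay just under nonTx 3, and Tx 2 lay with nonTx 1. The difference of Fdps was 0.57 ± 0.30 (SE; 1.48-fold, unadjusted limma p 0.0864).

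Ggps1, which makes geranylgeranyl diphosphate for protein prenylation and so leads away from sterols, had the largest p of the 25 genes. Its relative signal was 0.822, 0.758, 0.96 and 0.889 in nonTx 1 to nonTx 4 and 1.02, 0.911, 0.904 and 0.655 in Tx 1 to Tx 4. The highest and the lowest array were both Tx arrays. The difference was 0.01 ± 0.15 (SE; unadjusted limma p 0.941), and it ran from -0.07 to 0.14 as single arrays were left out. The 5 other probes of Ggps1 gave differences of -0.14 to 0.18.

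Squalene and lanosterol come next. Fdft1, the squalene synthase that commits the pathway to sterols, had relative signals of 23 to 54.1 in nonTx and 33 to 60.5 in Tx, and a difference of 0.45 ± 0.25 (SE). It followed the other genes of the list most closely, with a Pearson r of 0.988 and a Spearman rho of 1 over the 8 arrays against the median of the rest, which share the same libraries. Lss, the lanosterol synthase, had relative signals of 7.91 to 17.2 in nonTx and 8.81 to 18.6 in Tx, and a difference of 0.38 ± 0.28 (SE). Of its other probes, 1 gave 0.36 ± 0.30 and 1 gave 0.01 ± 0.40.

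Sqle, the squalene epoxidase and a rate-limiting enzyme of the sterol branch, had the largest difference of the 25 genes. Its relative signal was 16.9, 16, 35.5 and 6.74 in nonTx 1 to nonTx 4 and 34.1, 21.8, 33.1 and 25.7 in Tx 1 to Tx 4. All Tx arrays lay above nonTx 1, nonTx 2 and nonTx 4, and all lay below nonTx 3, which was the highest of the 8. The difference was 0.82 ± 0.40 (SE; 1.77-fold, unadjusted limma p 0.0692, adjusted p 0.403 with Benjamini-Hochberg). It was 0.41 without nonTx 4. The nonTx arrays spanned 5.27-fold and the Tx arrays 1.56-fold, for a residual SD of 0.73.

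**Figure D4:**
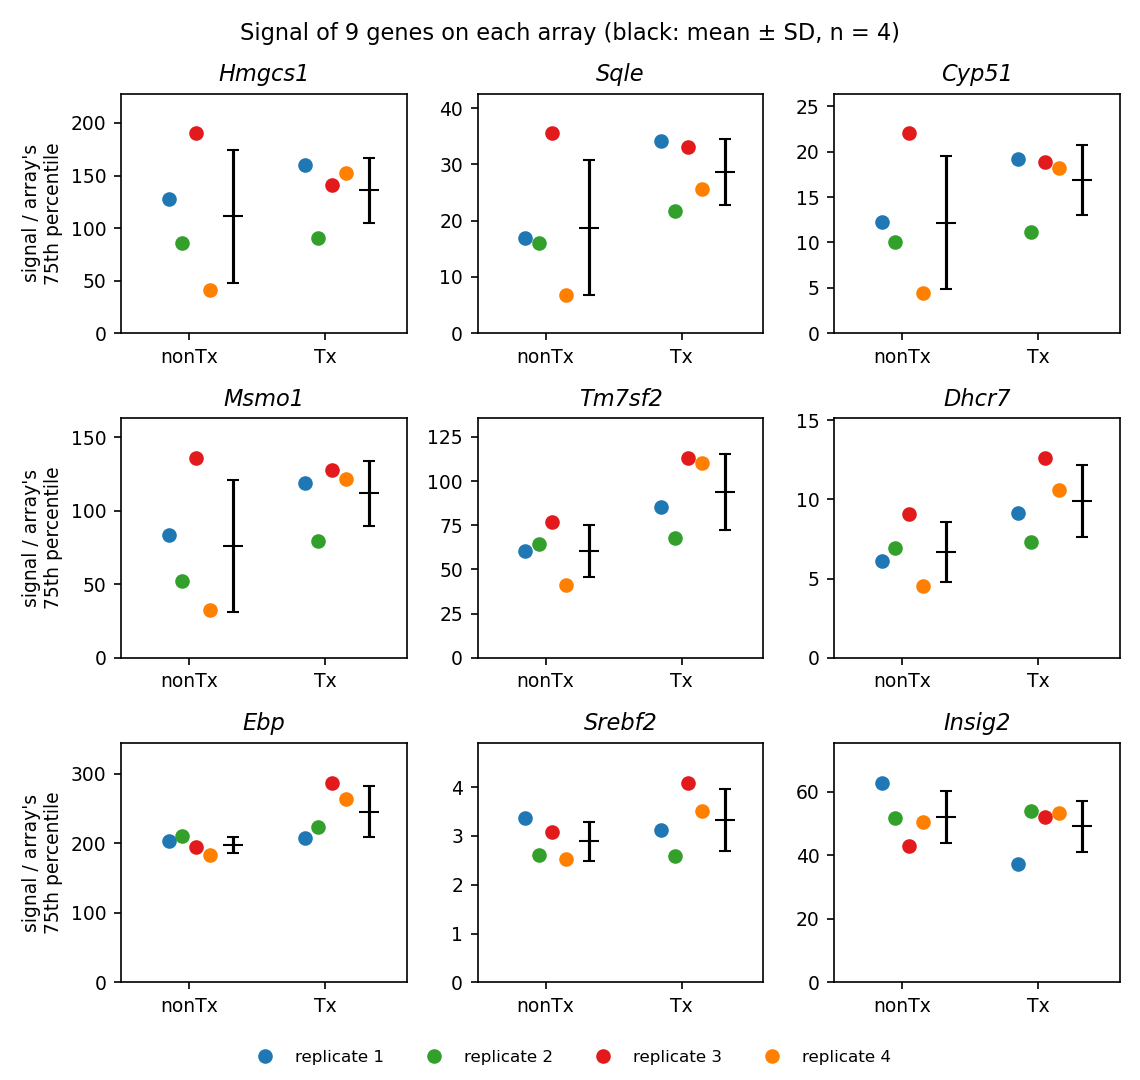
Relative signal (processed signal divided by the array's 75th percentile) of 9 genes on each array, coloured by replicate number, with the mean ± SD (n = 4) of each group in black. The labels do not pair samples of equal number. The nonTx points of Hmgcs1, Sqle, Cyp51 and Msmo1 spread around the Tx points, those of Tm7sf2 and Dhcr7 overlap at the edge, and Srebf2 and Insig2 spread less.

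Of the late steps from lanosterol to cholesterol, all 9 genes measured had a positive difference, against 56.3% of all genes. Their median was 0.57 on the log2 scale, and only Lbr turned negative when scaled to the spike-in RNAs (-0.14). Among the 9, 3 had an unadjusted limma p under 0.05, against 8.65% of all genes higher at that p. Cyp51, the lanosterol demethylase, had a relative signal of 12.2, 10, 22 and 4.47 in nonTx 1 to nonTx 4 and of 19.2, 11.2, 18.9 and 18.2 in Tx 1 to Tx 4. As for Sqle, nonTx 3 was the highest array and nonTx 4 the lowest. For Cyp51, Tx 2 lay apart from the other Tx arrays. The difference of Cyp51 was 0.65 ± 0.40 (SE; unadjusted limma p 0.136), and 0.24 without nonTx 4.

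Tm7sf2, a sterol reductase that acts after Cyp51, had the smallest p of the 25 genes. Its relative signal was 60.3, 64.5, 76.6 and 41 in nonTx 1 to nonTx 4 and 85.2, 67.8, 113 and 110 in Tx 1 to Tx 4. Tx 1, Tx 3 and Tx 4 lay above every nonTx array, and Tx 2 lay between nonTx 2 and nonTx 3. The difference was 0.64 ± 0.21 (SE; 1.56-fold, unadjusted limma p 0.0126, adjusted p 0.313 with Benjamini-Hochberg), and a further probe of the gene gave 0.58 ± 0.21. Without nonTx 4 it was 0.46 ± 0.18. Lbr, the lamin B receptor, a protein of the inner nuclear membrane with the same reductase activity, differed by 0.07 ± 0.11 (SE), and by -0.01 without Tx 1, with relative signals of 6.35 to 7.94 in nonTx and 6.43 to 8.66 in Tx.

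Msmo1, Nsdhl and Hsd17b7 take the methyl groups off the sterol ring. The methylsterol monooxygenase Msmo1 had a relative signal of 83.5, 52.4, 136 and 32.5 in nonTx 1 to nonTx 4 and of 119, 79.5, 128 and 122 in Tx 1 to Tx 4. Again nonTx 3 was the highest array, and Tx 2 lay between nonTx 1 and nonTx 2. The difference was 0.73 ± 0.37 (SE; 1.66-fold, unadjusted limma p 0.076), and 0.39 without nonTx 4. Nsdhl, a sterol dehydrogenase, differed by 0.57 ± 0.35 (SE), with relative signals of 1.28 to 4.40 in nonTx and 2.36 to 4.84 in Tx. Hsd17b7, the ketosteroid reductase of this step, differed by 0.22 ± 0.27 (SE), and by -0.04 without nonTx 4.

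The last steps move and set double bonds of the ring. Ebp, a sterol isomerase, had a relative signal of 203, 210, 194 and 183 in nonTx 1 to nonTx 4 and of 207, 224, 287 and 264 in Tx 1 to Tx 4. Tx 2, Tx 3 and Tx 4 lay above all nonTx arrays, and Tx 1 lay among them. The difference was small, 0.30 ± 0.11 (SE; 1.23-fold, unadjusted limma p 0.0223, adjusted p 0.334 with Benjamini-Hochberg), but Ebp also spread little, with a residual SD of 0.16, and a further probe gave 0.44 ± 0.18. Its correlation with the median of the other genes over the 8 arrays was 0.605, below that of most enzymes.

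Sc5d, the sterol desaturase before the final reduction, had a relative signal of 57.2, 73.1, 82.8 and 56.8 in nonTx 1 to nonTx 4 and of 80, 68.6, 94.4 and 91.5 in Tx 1 to Tx 4. Tx 3 and Tx 4 were above every nonTx array, and Tx 1 and Tx 2 were below nonTx 3. The difference of Sc5d was 0.32 ± 0.15 (SE; unadjusted limma p 0.0569).

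Dhcr7, the reductase that makes cholesterol from its last precursor, had a relative signal of 6.14, 6.90, 9.09 and 4.53 in nonTx 1 to nonTx 4 and of 9.12, 7.29, 12.6 and 10.6 in Tx 1 to Tx 4. Tx 1, Tx 3 and Tx 4 lay above every nonTx array, Tx 1 by a small margin, and Tx 2 lay above all nonTx arrays but nonTx 3. The difference was 0.59 ± 0.22 (SE; unadjusted limma p 0.0225, adjusted p 0.334 with Benjamini-Hochberg). A much dimmer probe of Dhcr7, with a median raw signal of 35.7, went the other way, by -0.63 ± 0.26 (unadjusted limma p 0.0367), and the mean of both probes differed by -0.02.

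The genes that control the pathway come next. Their residual SDs ran from 0.207 for Scap to 0.405 for Insig1, inside the range of the enzymes, which was 0.165 for Ebp to 0.794 for Mvd. Srebf2, which encodes SREBP2, had a relative signal of 3.36, 2.60, 3.09 and 2.52 in nonTx 1 to nonTx 4 and of 3.12, 2.59, 4.09 and 3.51 in Tx 1 to Tx 4. Tx 3 and Tx 4 were the highest arrays, and Tx 1 and Tx 2 lay inside the nonTx range. The difference was 0.19 ± 0.15 (SE; unadjusted limma p 0.23), and a dimmer probe gave -0.14 ± 0.21. Scaled to the spike-in RNAs it was -0.02.

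Scap, the escort of SREBP2, had a relative signal of 38.7, 36.1, 46.9 and 30.6 in nonTx 1 to nonTx 4 and of 48.7, 38.3, 42.3 and 44.6 in Tx 1 to Tx 4. The difference of Scap was 0.20 ± 0.13 (SE; unadjusted limma p 0.151), or -0.01 when scaled to the spike-in RNAs. Within a 1.59-fold span, Scap followed the array order of the enzymes, low on nonTx 4 and high on nonTx 3 and Tx 1, with a correlation of 0.93 with the median of the other genes (n = 8 arrays).

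Insig1, itself a target of SREBP2 that restrains it, had a relative signal of 3.52, 5.37, 6.67 and 5.07 in nonTx 1 to nonTx 4 and of 6.73, 4.85, 8.45 and 4.47 in Tx 1 to Tx 4. Its lowest array was nonTx 1, not nonTx 4, and Tx 2 and Tx 4 lay inside the nonTx range. The difference was 0.24 ± 0.23 (SE; unadjusted limma p 0.332), and it was 0.07 without nonTx 1 and also 0.07 without Tx 3.

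Insig2, the other anchor of Scap, had a relative signal of 62.9, 51.9, 42.9 and 50.5 in nonTx 1 to nonTx 4 and of 37.2, 54.1, 52 and 53.5 in Tx 1 to Tx 4. Its lowest array, Tx 1, was among the high arrays of the enzymes, and nonTx 3, also high for the enzymes, was its second lowest. The correlation of Insig2 with the median of the other genes over the 8 arrays was -0.369. The difference was -0.09 ± 0.15 (SE; unadjusted limma p 0.578), and it was 0.01 without nonTx 1 and 0.04 without Tx 1. The other probes gave -0.07 ± 0.16 and 0.15 ± 0.18.

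Stard4, a carrier of cholesterol between membranes, had relative signals of 5.93 to 10.2 in nonTx and 6.91 to 13.8 in Tx, with Tx 1 the highest and nonTx 4 the lowest array. It differed by 0.22 ± 0.22 (SE), and by 0.04 without Tx 1 or 0.06 without nonTx 4. A dimmer probe of Stard4 gave 0.58 ± 0.24. Soat2, which esterifies cholesterol for storage and lipoproteins, had a relative signal of 15.1, 13.7, 15.5 and 20.9 in nonTx 1 to nonTx 4 and of 14.1, 15.6, 15.2 and 17.9 in Tx 1 to Tx 4. Its highest array was nonTx 4, where the enzymes were lowest, and the rest lay close together. The difference of Soat2 was -0.04 ± 0.13 (SE; unadjusted limma p 0.778), and its correlation with the median of the other genes was -0.526 (n = 8 arrays). This difference was 0.09 without nonTx 4 and 0.01 without Tx 1.

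The genes had 52 probes in all, 51 of them tested. Of the 26 tested probes that were not a gene's brightest, 16 differed in the same direction as the brightest and 10 in the other. Among those with a median raw signal of at least 100, a limit chosen after the values were seen, 15 of 20 had the same direction, and among the 6 dimmer ones 1 did. Besides the dim probes of Hmgcs1 and Dhcr7, a dim probe of Nsdhl gave -0.54 ± 0.50 and 1 of Msmo1 gave -0.14 ± 0.46. In the authors' deposited table the log2 differences of the brightest probes of Sqle, Tm7sf2 and Insig2 were 0.82, 0.64 and -0.09.

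Other genes that SREBP2 is known to raise were read from a separate list. All 10 were higher in Tx, against 56.3% of all genes, with a median log2 difference of 0.41. Scaled to the spike-in RNAs 9 were higher, against 16.6% of all genes, with a median of 0.20. None passed the adjusted threshold in limma, and 5 were higher at an unadjusted limma p under 0.05, against 8.65% of all genes. Tmem97, a sterol-regulated membrane protein that binds the cholesterol transporter Npc1, had relative signals of 14.2 to 21 in nonTx and 20.2 to 28 in Tx, a difference of 0.45 ± 0.14 (SE; unadjusted limma p 0.00902). Acss2, which makes acetyl-CoA from acetate, had relative signals of 12.9 to 18.4 in nonTx and 16.5 to 36.9 in Tx, a difference of 0.66 ± 0.23. Fads1, a fatty acid desaturase, differed by 0.24 ± 0.10. The groups overlapped for all of these, and 5 of the 10 genes had their lowest value on nonTx 4, against 14.5% of all genes.

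Pathways next to it were read in the same way, and scaled to the spike-in RNAs every difference below is lower by 0.21, which turns the medians of the 5 lists of this and the next paragraph negative. Beside the counts of these lists, 56.3% of all genes were higher. At an unadjusted limma p under 0.05, 8.65% of all genes were higher and 5.25% lower. The 14 genes of SREBP1 and fatty acid synthesis had levels of -0.39, -0.05, 0.01 and 0.15 in nonTx 1 to nonTx 4, so that nonTx 4 was the highest nonTx array there, and of 0.09, -0.24, 0.44 and 0.04 in Tx 1 to Tx 4. Of these 14 genes, 11 were higher in Tx, with a median of 0.15 and 2 at an unadjusted limma p under 0.05: Acacb, an acetyl-CoA carboxylase, at 0.52 ± 0.20, and Mlxipl, the carbohydrate-responsive factor ChREBP, at 0.37 ± 0.15. The 16 genes of the non-sterol isoprenoid branch, which use the pathway's intermediates for prenylation, dolichol and ubiquinone, had a median difference of 0.12, with 13 higher and 2, Dpagt1 and Nus1, at an unadjusted limma p under 0.05.

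The 14 genes listed for SREBP processing and sterol-regulated degradation, among them the LXR receptor genes Nr1h2 and Nr1h3, had a median of 0.07. None had an unadjusted limma p under 0.05, Syvn1 coming closest at -0.31 ± 0.15. Among 15 genes of cholesterol efflux, storage and LXR response, 8 were higher, with a median of 0.02 and 3 at an unadjusted limma p under 0.05: Lcat at 0.22 ± 0.09, Mttp at 0.24 ± 0.11 and Npc2 at 0.19 ± 0.08. Of 11 genes of bile acid synthesis, the route by which the liver removes cholesterol, 7 were higher, with a median of 0.03. Cyp27a1, the mitochondrial sterol hydroxylase, was higher by 0.59 ± 0.17 (unadjusted limma p 0.0071) and Nr0b2, the repressor SHP, was lower, at -0.52 ± 0.20 (unadjusted limma p 0.0283). None of the genes in these lists passed the adjusted threshold in limma.

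**Figure D5:**
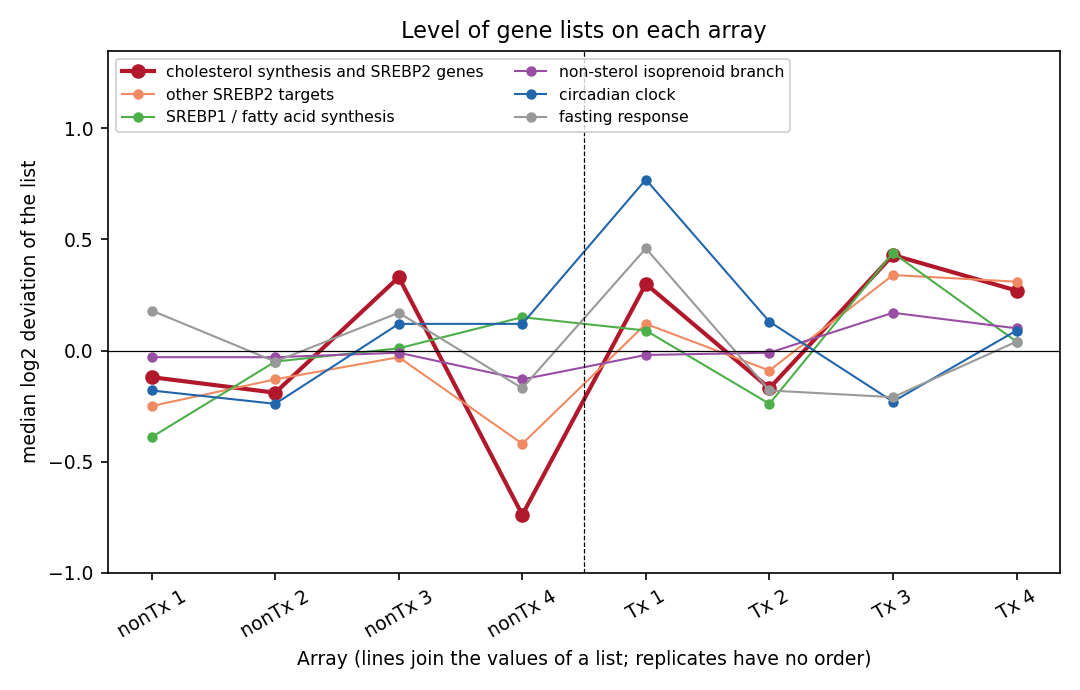
Level of 6 gene lists on each array, as the median log2 deviation of a list's genes from their own means over the 8 arrays; lines join the values of a list and give no order to replicates. The cholesterol genes (red) are lowest on nonTx 4 and high on nonTx 3, Tx 1, Tx 3 and Tx 4, the other SREBP2 targets take the same side on most arrays, and the clock genes stand out on Tx 1.

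Genes of feeding state, daily rhythm and growth were read beside the pathway because they too can differ between livers taken at different moments. The 13 clock genes had a level of 0.77 on Tx 1 and between -0.24 and 0.13 on the other arrays. Of the 12 genes of the fasting response, 8 were higher in Tx, against 56.3% of all genes, with a median of 0.14. G6pc, the glucose-releasing phosphatase, was lower in Tx on every array, at 71.2 to 102 in nonTx and 45.8 to 65.7 in Tx (-0.62 ± 0.14, unadjusted limma p 0.00136). The 9 cell cycle genes stood high on nonTx 3, at 0.90, and on Tx 3, at 1.34. On nonTx 4 the levels of these 3 lists were 0.12, -0.17 and -0.04. There 5 of the 12 fasting genes had their lowest value, against 14.5% of all genes. The part of these lists in the results above was not tested. The 7 bright spike-in RNAs had levels of -0.35 on nonTx 4 and -0.40 on Tx 1, and of 0.43 and 0.44 on Tx 2 and Tx 3, and their part was not tested either.

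The adrenal cortex and fat also make or store sterols, and their markers were read. Of 7 adrenal cortex markers, Cyp11b1 and Cyp11a1 were well above background on 0 arrays, and the summed level of the 5 tested was 2.64 to 2.72 in nonTx and 1.72 to 2.80 in Tx. Of these 5, Nr5a1, the brightest, was lower in Tx (-0.54 ± 0.19, unadjusted limma p 0.0162), and Mc2r (0.82 ± 0.33, p 0.032) and Hsd3b1 (0.94 ± 0.42, p 0.0484) were higher. Of 6 adipocyte markers, Adipoq, Plin1 and Cfd were well above background on 0 arrays. The 3 tested were all higher in Tx, against 56.3% of all genes, with a median of 0.33. Among them Fabp4 had relative signals of 2.76 to 3.71 in nonTx and 3.95 to 4.55 in Tx, which did not overlap (0.47 ± 0.11, unadjusted limma p 0.00168). Cidec differed by 0.33 ± 0.20 and Lep by 0.17 ± 0.13. The part of these tissues in the results was not tested.

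Genes outside the list that followed its array level most closely were ranked by Pearson correlation over the 8 arrays. Against the median of the others, 13 of the 25 genes (52%) had an r above 0.9, and 65 of 16472 genes outside the list (0.395%) had one against the level of the list. The 10 with the highest r were Serinc1, Rad54b, Fancb, Defa42, Pkp2, H2al1n, Mmadhc, Plpp5, Isyna1 and Cyp4a31, with r from 0.948 to 0.97. Most of these moved within narrow bounds, Serinc1 within 1.19-fold, or had a low signal. Rad54b and Fancb, with median raw signals of 105 and 76.5, spanned 2.6-fold and 2.34-fold. Cyp4a31, a fatty acid hydroxylase of the PPARα-regulated Cyp4a cluster, spanned 7.51-fold, with a difference of 1.02 ± 0.47 (SE; unadjusted limma p 0.0549). Its near-identical neighbour Cyp4a10 had an r of 0.927 and spanned 7.14-fold, and the probes may share signal between such copies. Among genes with r above 0.9 and a span of at least 2-fold there were 12 of the list and 7 outside it.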

How the data were processed

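Each of 8 liver RNA samples (0.5 ug, Cy3) was hybridised to an Agilent array, per the labels. Spot intensities in the scanner output had been background-subtracted by the authors with Feature Extraction, version 10.7.1.1 per the file headers and 9.1 per the submitters' processing notes. In the deposited table, the authors gave these intensities again together with log2 values, which could be rebuilt within 0.00161 by scaling to each array's 75th percentile and centring each probe. Here control and outlier spots were dropped, signals were divided by the 75th percentile, and log2 was taken. A probe entered the test if at least 3 arrays of 1 group had it well above background, and a gene was read from its brightest such probe.

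The test was limma (version 3.58.1, R 4.3.3) with lmFit, a trended eBayes and Benjamini-Hochberg adjustment, leaving 6 residual degrees of freedom, and it was checked on simulated data. Precision is limited by having 4 arrays in each group. The members and lists were chosen with earlier results of these data known. Values on each array are given for the 8 smallest p, the 4 control genes, the 2 largest residual SDs and the 2 largest p. Other lists name up to 3 genes by p, and up to 10 correlated genes are named. Hmgcs1, Cyp51, Cyp4a10 and the promoters shown were added after values were seen. Promoters came from RefSeq. Alternatives were normexp (offset 50), quantile, median, spike-in and the authors' scaling, other filters, array weights, no variance trend, mean of probes, a replicate block and each array left out.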

Additional observations from a re-analysis of the deposited data

Results flagged for a closer look

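In 52 sets of 4 arrays, each gene with each group and the 2 group sets of the pathway level, the gap of the most extreme array to its nearest neighbour was divided by the whole range, and 3 sets lay above Dixon's critical value for 4 samples. Chance puts about 1 in 20 such sets there. For Cyp51 in Tx the ratio was 0.903, with Tx 2 at -0.23 on the log2 scale and its nearest neighbour at 0.47. Tx 2 was also the low array for Msmo1 in Tx, at -0.10 with the next at 0.48 (ratio 0.856). For Insig2 in Tx the ratio was 0.893, and there Tx 1 was low, at -0.43 with the next at 0.05.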

How the results depend on the processing

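The median of the 25 genes stayed positive in all 20 alternative settings, none passed an adjusted p of 0.05 in any, and 16 genes kept their sign in all. The number at an unadjusted limma p under 0.05 was 0 with spike-in scaling (0.921% of all genes), 7 with the replicate block (28%, against 7.99% of all genes), and 1 to 15 as single arrays were left out (5.17% to 14.6% of all genes). The number whose Tx arrays all lay above nonTx was 1 with normexp (4.9% of all genes), and 0 to 3 with single arrays left out (5.8% to 13.4%). Signs turned for Ggps1 with normexp (-0.00202), spike-in scaling (-0.201), array weights (-0.0216) and the mean of probes (-0.0165). Spike-in scaling also turned Lbr (-0.143), Srebf2 (-0.0193) and Scap (-0.00884), array weights turned Soat2 (0.041), and the mean of probes turned Hmgcs1 (-0.0197) and Dhcr7 (-0.0243). With single arrays left out, differences ran from -0.0693 to 0.142 for Ggps1, -0.007 to 0.136 for Lbr, -0.0381 to 0.392 for Hsd17b7, -0.174 to 0.044 for Insig2 and -0.117 to 0.0876 for Soat2. The cause was not tested, except that spike-in scaling lowers every difference alike, by 0.21. The labels do not pair samples of equal number. Same-numbered samples deviated with correlations of -0.0108 to 0.0987, against -0.106 to 0.134 for samples of different number. Arrays of equal number lay in the same slide column, so the replicate block was also a block by slide column. A slide block could not be fitted with all arrays on 1 slide. With 4 arrays a group and a residual SD near 0.41, differences of the size seen here lie close to their errors, and dim probes have the least signal over background.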

Other observations

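On the array with the lowest cholesterol genes, nonTx 4, Cyp4a14, Acot1, Pdk4 and Fgf21 of the fasting response list were also at their lowest, and the genes described here were picked after their values were seen. The list as a whole did not set nonTx 4 apart, with a level of -0.17 there, -0.18 on Tx 2 and -0.21 on Tx 3, and Cpt1a, Ppargc1a and Angptl4 had lower values on other arrays. Cyp4a14, a fatty acid hydroxylase, had a relative signal of 0.159 on nonTx 4, of 1.1 to 1.74 on the other nonTx arrays and of 0.427 to 1.5 in Tx, where Tx 2 was lowest. Acot1, an acyl-CoA thioesterase, was at 6.50 on nonTx 4, between 30.7 and 51.3 on the other nonTx arrays and between 18.9 and 53.9 in Tx, again lowest on Tx 2. Pdk4, a kinase that spares glucose, was at 1.23 on nonTx 4 and 1.40 on Tx 2, and at 2.02 to 3.57 elsewhere. Srebf1, the factor of fatty acid synthesis, had its highest relative signal on nonTx 4, at 172, against 68.4 to 108 on the other arrays. Neither the reason for these values nor a tie to the cholesterol genes was tested.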
